A study of Mus musculus with 4 samples.

Results

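The livers compared here came from male C57BL/6 mice after bilateral adrenalectomy (ADX), at zeitgeber time (ZT) 2 and ZT14, where zeitgeber time counts hours from lights-on, so that ZT2 lies early in the light phase and ZT14 early in the dark phase. Adrenalectomy was done from the back under ketamine and xylazine, and the mice then had free access to standard chow and to 0.9% NaCl to drink. The pair was chosen by its sample titles and consists of 2 of the study's 4 arrays. The other 2 arrays hold liver RNA of sham mice of the same sex and strain at the same times, and they enter here only as a reference. Total RNA was hybridised to Affymetrix MG_U74Av2 arrays, 1 array per group, and the number of mice behind each array is not stated in the labels. All 12422 probe sets other than controls were described.

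The adrenal cortex secretes glucocorticoids in a daily rhythm, and adrenalectomy removes that hormone together with mineralocorticoids and adrenal adrenaline. The liver also holds its own clock, a feedback loop in which the activators Clock and Arntl switch on the Per, Cry and Nr1d repressors, which in turn hold the activators down. Clock-controlled factors such as Dbp, Tef and Nfil3 carry the rhythm to enzymes of sugar, lipid, haem and drug metabolism, and feeding adds its own daily signals.

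Each value is an array's signal in units scaled to a common trimmed mean, together with a detection call of Present, Marginal or Absent. Present calls covered 46.5% of probe sets on the ADX ZT2 array and 44.4% on the ADX ZT14 array. Over the 5167 probe sets Present on both arrays, the log2 difference (ZT14 minus ZT2) had a median of 0.005 and a robust SD of 0.33. Hepatocyte markers were Present on both arrays for 10 of 10 genes, with summed signals of 32184.3 at ZT2 and 32074.3 at ZT14. Markers of muscle and bile duct were Present on neither array for any of their 10 and 4 genes. Of 8 kidney markers, 1 was Present at ZT2 (Slc12a1, 9.3 units) and 1 at ZT14 (Kap, 39.8 units). Some genes from the marker lists of other tissues were Present on both ADX arrays. They were Cyp21a1 of 9 adrenal genes (80.9 and 71.2 units, ZT2 then ZT14), Cela1 of 7 exocrine pancreas genes (138.7 and 91.1), and Fabp4 (8.1 and 5.6) and Car3 (4898.4 and 3833.8) of 6 adipose genes. Car3 carried most of the adipose sums of 4954.7 and 3897.6 units. The highest adipose signals on the sham arrays were 4496.7 (ZT2) and 3943.4 (ZT14). The part of these genes in the results was not tested. With 1 array per group no difference below has a replicate check, no test was possible, and no p-value is given.

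A call required a difference of 2-fold or more between the ADX arrays, with a Present call on the one with the higher signal. Of the 6125 probe sets Present on at least 1 ADX array, 177 were called higher at ZT14 (2.89%) and 150 lower (2.45%). The share called higher among all calls was 54.1%, and it was 42.0% after quantile normalization of the arrays, with 137 called higher and 189 lower. In the 4714 genes each represented by its brightest probe set, 127 were called higher (2.69%) and 105 lower (2.23%), and these last percentages are the background for every gene list below.

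The calls depended on signal. Among 1199 probe sets with a mean ADX signal under 20 units, 14.51% were called, and the robust SD of the log2 difference was 0.44. Among 272 probe sets at 1000 units or more, 1.84% were called, and the robust SD was 0.16. Of the 327 calls, 183 were not Present on the dimmer array, so their fold is a lower bound and is written as at least that size. The calls with a brighter signal of 100 units or more numbered 79, of which 40 were higher and 39 lower at ZT14. For 116 genes with several probe sets above that mean signal, the probe sets of a gene differed from each other with a pooled SD of 0.18 on the log2 scale, which covers differences between probe sets and not between mice.

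**Figure D1:**
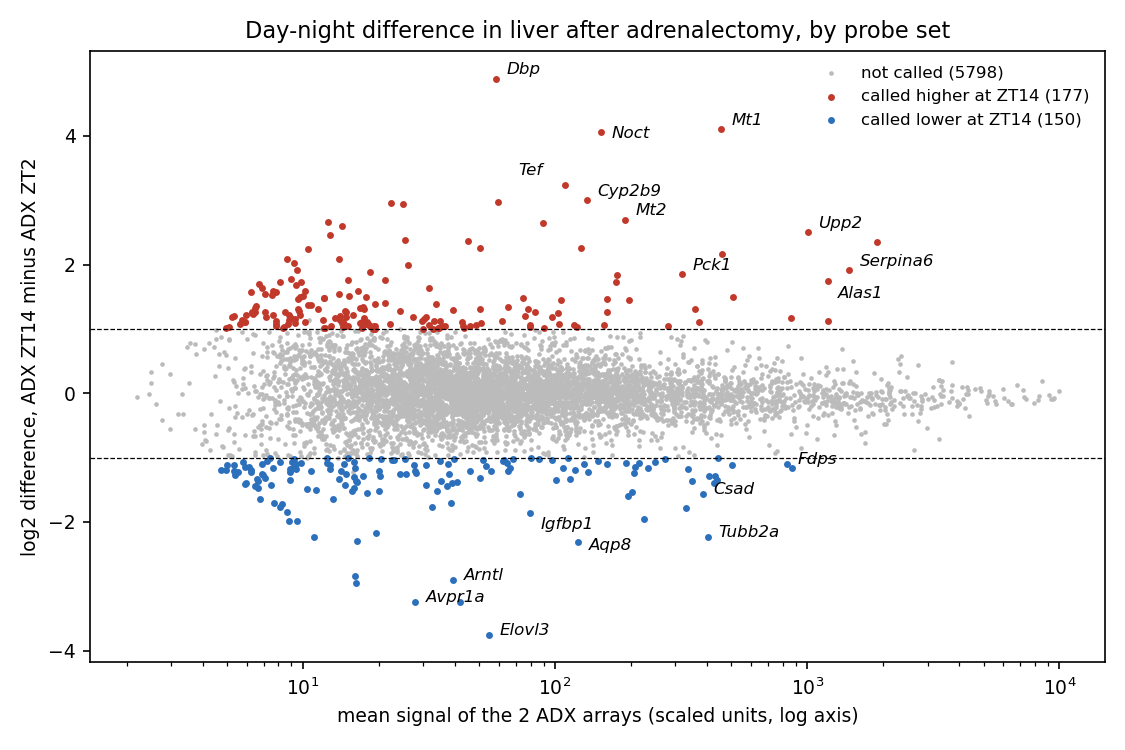
Each point is 1 of the 6125 probe sets Present on an ADX array, with the mean scaled signal of the 2 ADX arrays on a log horizontal axis and the log2 difference, ZT14 minus ZT2, on the vertical axis. Dashed lines mark the 2-fold limits, red points are the 177 probe sets called higher and blue points the 150 called lower, and the grey cloud narrows as signal grows.

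Clock genes stood at both ends of the day-night differences on the ADX arrays. Of 17 measured clock genes, 8 were called higher at ZT14 and 3 lower, against 2.69% and 2.23% of all genes. The median log2 difference over the 11 clock genes Present on both arrays was 0.17, against 0.005 over all genes. The clock list, like every list here, was drawn up with earlier results of these arrays known, so its count is a description.

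Among the output factors, Dbp, which encodes a PAR bZIP transcription factor, had a signal of 0.8 units (Absent) on the ADX ZT2 array and 115.8 on the ADX ZT14 array, and of 1.2 and 98.2 on the sham arrays. The ZT14 array was thus at least 29.6-fold brighter after adrenalectomy. Tef, a related PAR bZIP factor, had signals of 21.0 and 197.3, a 9.41-fold difference. Nfil3, which competes with both for the same DNA sites, ran the other way, from 54.6 at ZT2 to 20.2 at ZT14, and its sham signals were 76.8 and 28.1. Noct, a NADPH phosphatase known as nocturnin, went from 17.2 to 287.8 in the ADX pair and from 16.6 to 258.0 in the sham pair. Of its other 2 probe sets, 1 was called the same way, from 0.4 (Absent) to 24.7, and 1 gave a log2 difference of -0.24, opposite in sign. Usp2, a deubiquitinase of clock proteins, had 24.6 units (Absent) at ZT2 and 154.0 at ZT14 after adrenalectomy, against 11.4 (Absent) and 210.4 in the sham pair.

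Of the activators, Arntl, the partner of Clock, had a signal of 69.6 at ZT2 and 9.3 (Absent) at ZT14, at least 7.5-fold lower. Clock itself was at 32.7 and 25.0 units, a log2 difference of -0.39 that was not called. Among the repressors, Per2 went from 8.1 (Absent) to 42.5, Bhlhe40 from 44.0 to 209.5 and Nr1d2 from 17.5 to 83.3, all called higher at ZT14. Per3, a period gene without the strong repressor role of Per2, was called lower, at 19.9 and 6.4 units (Absent). The cryptochromes were close to level between the times, Cry1 at 82.0 and 92.5 units and Cry2 at 21.4 and 22.0. Nr1d1, the paralogue of Nr1d2, was at 25.6 and 37.1 units and was not called. Wee1, a clock-controlled kinase that restrains entry into mitosis, went from 5.3 (Absent) to 22.6.

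**Figure D2:**
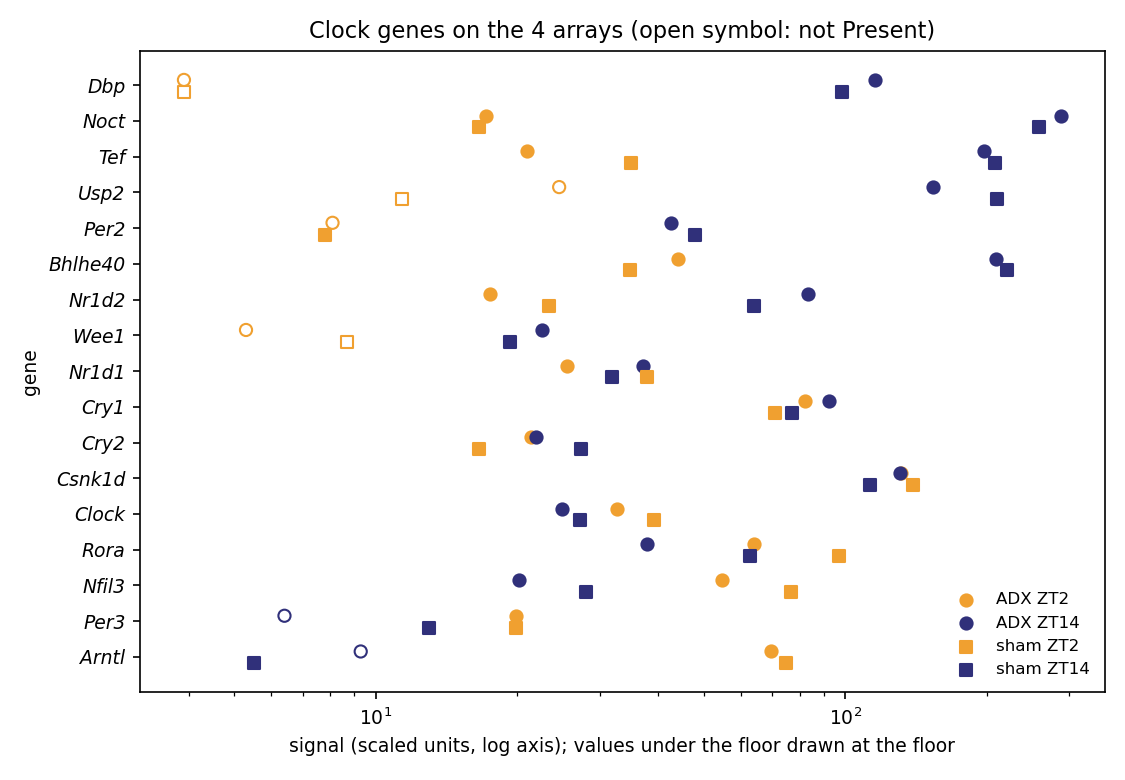
Scaled signal of the 17 measured clock genes on a log axis, with circles for ADX arrays, squares for sham arrays, orange for ZT2 and dark blue for ZT14, and open symbols where the call was not Present. For Dbp, Noct, Tef and Arntl the separation by time of day is far wider than that between ADX and sham at the same time, as in Dbp at 115.8 and 98.2 units at ZT14.

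The promoter windows of Tef and Nfil3 are shown because they hold the letters that the clock activators and the ROR and Nr1d receptors are known to bind. The windows cover the 250 bases before an annotated start in RefSeq (GRCm38.p6), and a motif was searched on both strands. Capitals mark the E-box (CACGTG) in the first and second windows, which belong to different Tef starts, and the ROR element (TAGGTCA, here on the reverse strand) in the third.
Tef, chr15:81802423-81802672, plus strand: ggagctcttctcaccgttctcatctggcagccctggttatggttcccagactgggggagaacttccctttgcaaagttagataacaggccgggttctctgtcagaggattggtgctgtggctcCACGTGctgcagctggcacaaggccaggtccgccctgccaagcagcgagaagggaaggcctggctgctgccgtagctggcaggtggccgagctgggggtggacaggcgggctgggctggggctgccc
Tef, chr15:81811164-81811413, plus strand: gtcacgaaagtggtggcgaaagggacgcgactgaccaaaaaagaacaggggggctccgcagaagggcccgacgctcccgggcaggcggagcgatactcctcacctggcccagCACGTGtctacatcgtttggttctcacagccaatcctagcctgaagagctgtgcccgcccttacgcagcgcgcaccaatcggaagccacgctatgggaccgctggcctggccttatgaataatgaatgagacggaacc
Nfil3, chr13:52981040-52981289, minus strand: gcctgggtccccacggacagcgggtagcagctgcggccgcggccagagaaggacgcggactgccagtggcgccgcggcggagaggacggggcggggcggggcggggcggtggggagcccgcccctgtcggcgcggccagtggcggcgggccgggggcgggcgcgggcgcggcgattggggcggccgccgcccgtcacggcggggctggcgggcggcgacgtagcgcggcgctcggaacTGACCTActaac
Shares are of genes with a window, and for a gene with several starts a match in any of its windows counted. The E-box was in 10.9% of such genes Present on an ADX array and in 6.86% of all 27025. Of 5 clock genes called higher that had a window it was in 1, Tef. The ROR element was in 2.32% and 2.55% of the same sets. A match describes the letters of the window and is not evidence of binding.

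Glucocorticoid-responsive genes were still called in both directions without adrenals. Of 29 measured genes that respond to or handle glucocorticoids, 5 were called higher and 3 lower, and the median log2 difference was 0.08 in the 28 Present on both arrays, against 0.22 for the same genes in the sham pair. Mt1 and Mt2, the metal-binding metallothioneins, went from 50.3 to 861.4 units and from 50.5 to 327.7 units. The sham signals were 47.8 and 306.8 for Mt1 and 25.8 and 206.5 for Mt2, so the ADX ZT14 array had the highest Mt1 signal of the 4. Serpina6, the corticosteroid-binding globulin of plasma, stood at 616.3 and 2323.9 units, a 3.77-fold difference, and at 723.6 and 1118.7 in the sham pair. A second Serpina6 probe set was also called, at 52.4 and 106.8 units. Pck1, the cytosolic enzyme that commits carbon to gluconeogenesis, had 137.7 units at ZT2 and 497.7 at ZT14, against 325.7 and 578.7 in the sham pair, and the ADX ZT2 array was the lowest of the 4.

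Several classical targets differed less in the ADX pair than in the sham pair. Fkbp5, an immunophilin that holds the glucocorticoid receptor in check, had signals of 40.1 and 60.5 after adrenalectomy and 45.8 and 160.8 in the sham pair. Lpin1, a phosphatidate phosphatase and co-activator, had 28.5 and 44.3 against 59.9 and 324.0. Dusp1, a phosphatase of MAP kinases, had 80.2 and 127.1 in the ADX pair, a log2 difference of 0.67, against 1.59 in the sham pair. None of these 3 was called in the ADX pair. St3gal5, the synthase of the ganglioside GM3, was called in the ADX pair at 60.9 and 144.2 units and had 76.6 and 391.0 in the sham pair. Igfbp1, a binding protein of insulin-like growth factors, went from 125.2 to 34.6 units, with 547.3 and 24.1 in the sham pair, and its probe set can share sequence with related genes. Whether the ADX and sham differences differ could not be tested for any of these genes.

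Calls in cholesterol synthesis were all towards lower signal at ZT14. Of 16 measured enzymes, 5 were called lower and 0 higher, against 2.23% and 2.69% of all genes, and all 14 enzymes Present on both arrays had a negative log2 difference, with a median of -0.49 (sham -0.26). All 14 were also negative on the deposited scale, after quantile normalization and after centring on the median. The enzymes called spanned the pathway. Hmgcs1, which makes HMG-CoA in the cytosol, went from 288.2 to 122.3 units. Idi1, the isopentenyl diphosphate isomerase, went from 324.2 to 145.0, while its sham signals were 257.8 and 270.2. Fdps, the farnesyl diphosphate synthase, went from 1133.7 to 527.0, against 1240.6 and 1020.4 in the sham pair.

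Among the later steps, Nsdhl, which takes part in removing methyl groups from sterols, went from 220.1 to 102.4 units, and its 2 other probe sets were also called, with log2 differences of -1.02 and -1.08. Hsd17b7, a sterol ketoreductase, went from 21.5 to 8.0 (Absent). All 5 calls thus had the higher signal early in the light phase. Mvk, the mevalonate kinase, was not called by its brightest probe set, at 50.7 and 27.4 units (Absent), but was called lower by another, at 31.8 and 7.0 (Absent). The other enzymes not called ran from Fdft1 at -0.61 to Tm7sf2 at -0.01 on the log2 scale. Squalene epoxidase, Sqle, an entry point to the sterol branch, was at 81.7 and 64.4 units, a log2 difference of -0.35 against 0.52 in the sham pair, and Mvd, which forms isopentenyl diphosphate, gave -0.11 against 0.76.

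The windows before the starts of 4 of the enzymes called lower are shown because they share the CCAAT box (CCAAT or its reverse complement, in capitals), bound by the factor NF-Y, which is known to act with the sterol-responsive SREBP factors. In Hmgcs1 the capitals also mark a sterol element (TCACNCCAC).
Hmgcs1, chr13:119690101-119690350, plus strand: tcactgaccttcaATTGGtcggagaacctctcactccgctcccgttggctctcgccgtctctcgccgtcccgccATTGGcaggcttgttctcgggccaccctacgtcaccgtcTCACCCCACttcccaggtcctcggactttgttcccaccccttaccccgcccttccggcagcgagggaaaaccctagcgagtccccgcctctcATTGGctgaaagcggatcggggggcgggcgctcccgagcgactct
Idi1, chr13:8885356-8885605, plus strand: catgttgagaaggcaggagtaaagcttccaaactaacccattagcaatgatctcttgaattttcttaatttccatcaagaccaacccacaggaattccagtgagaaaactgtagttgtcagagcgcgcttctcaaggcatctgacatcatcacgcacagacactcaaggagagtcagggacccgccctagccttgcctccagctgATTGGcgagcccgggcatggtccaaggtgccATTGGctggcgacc
Nsdhl, chrX:72918271-72918520, plus strand: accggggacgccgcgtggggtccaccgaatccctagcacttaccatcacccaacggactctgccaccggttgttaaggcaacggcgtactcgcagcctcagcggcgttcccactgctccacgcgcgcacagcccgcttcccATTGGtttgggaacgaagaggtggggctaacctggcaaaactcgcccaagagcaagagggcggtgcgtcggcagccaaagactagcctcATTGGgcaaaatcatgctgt
Hsd17b7, chr1:169969206-169969455, minus strand: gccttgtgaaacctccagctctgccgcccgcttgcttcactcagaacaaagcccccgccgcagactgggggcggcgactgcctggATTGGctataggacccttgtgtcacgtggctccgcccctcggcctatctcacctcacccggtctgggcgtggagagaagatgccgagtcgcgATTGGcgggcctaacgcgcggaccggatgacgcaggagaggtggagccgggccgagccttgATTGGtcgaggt
A CCAAT box was in 13 of the 13 cholesterol enzymes with a window, against 41.0% of 3914 genes Present on an ADX array that had one and 37.5% of all genes. The enzymes that were not called held it as well, so the letters did not separate called from uncalled members. The sterol element was in 1 of the 13, Hmgcs1, against 1.51% of the genes Present on an ADX array.

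The chaperones of the endoplasmic reticulum had a negative median after adrenalectomy and a positive one in the sham pair. Of 22 measured genes, 1 was called higher and 1 lower, near the background, so the pattern lies in the medians: -0.31 over the 21 genes Present on both ADX arrays, 16 of them negative, against 0.24 for the same genes in the sham pair. Pdia6, a protein disulfide isomerase, was called lower, from 618.2 to 236.4 units, against 524.4 and 397.8 in the sham pair. Its 2 other probe sets gave log2 differences of -0.83 and -0.84. Sel1l, a part of the ubiquitin ligase that clears misfolded proteins, had 168.8 and 94.0 units, a log2 difference of -0.84 against 0.14 in the sham pair. Dnajb11, a co-chaperone of Hspa5, had 121.0 and 76.1.

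Of the unfolded protein response genes brighter at ZT14 in the sham pair, some were nearer to level in the ADX pair and Ddit3 was not. Creld2, a secreted stress-induced protein, had 250.7 and 242.8 units after adrenalectomy and 136.1 and 415.8 in the sham pair. Dnajb9, a repressor of the stress sensor Ern1, had 200.8 and 201.6 against 113.8 and 367.2. Herpud1, a membrane protein of the same degradation machinery as Sel1l, had 633.0 and 759.4 against 469.3 and 1241.5. For these 3 the ADX signals lay between the sham ZT2 and sham ZT14 signals. Ddit3, a stress-induced transcription factor, was called higher from 28.3 (Marginal) to 58.4 and had 19.6 and 45.5 in the sham pair. Dnajc3, an inhibitor of the kinase Eif2ak3, was at 289.4 and 218.1 units by its brightest probe set and called lower by another, at 148.5 and 66.7.

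**Figure D3:**
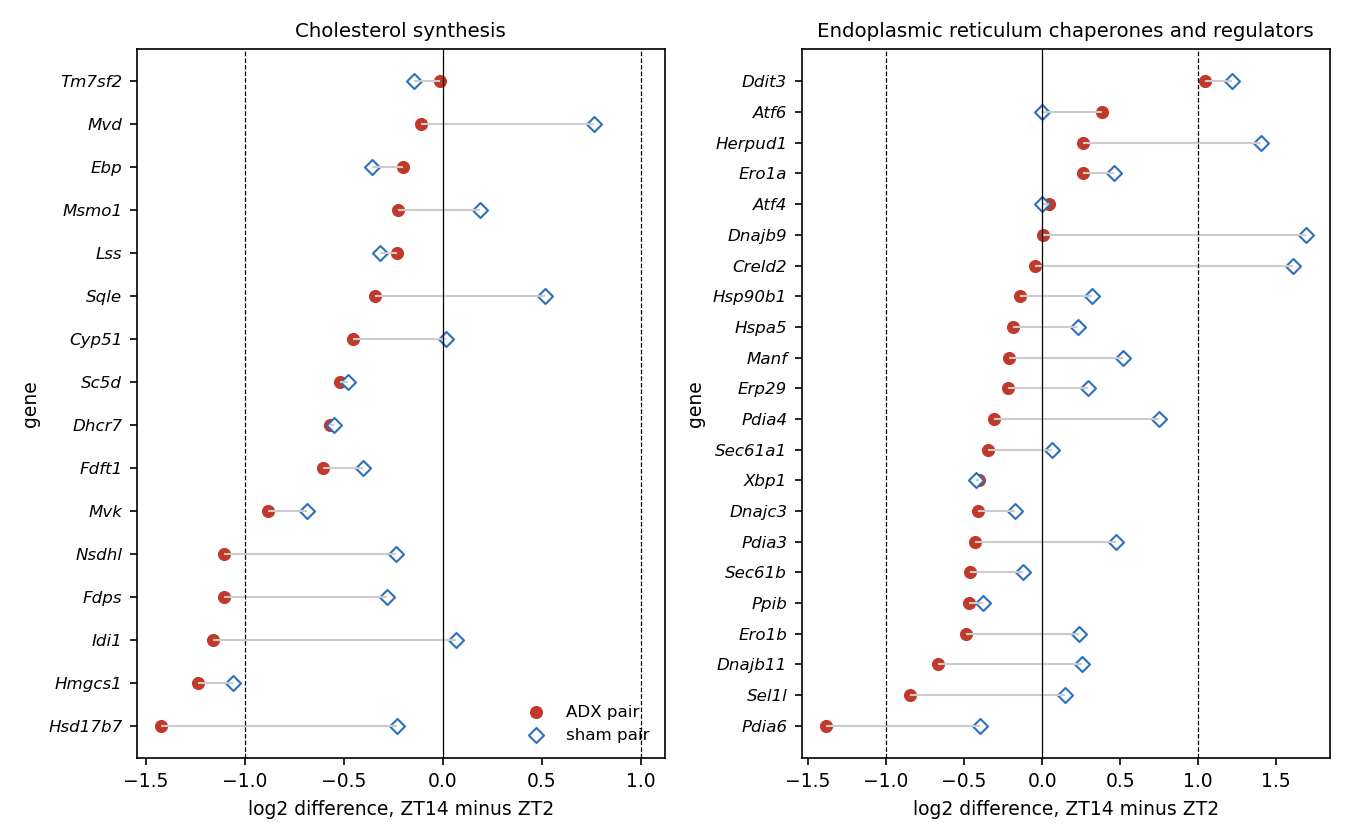
Log2 differences, ZT14 minus ZT2, for the 16 measured cholesterol enzymes and the 22 measured chaperones and regulators of the endoplasmic reticulum, with filled red circles for the ADX pair, open blue diamonds for the sham pair, and dashed lines at 2-fold. The ADX medians of -0.49 and -0.31 lie to the left of the sham medians of -0.26 and 0.24. Idi1 among the enzymes and Creld2, Dnajb9 and Herpud1 among the chaperones are genes with long grey links.

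The window before the Pdia6 start is shown for comparison with the cholesterol enzymes, with its CCAAT boxes in capitals. A CCAAT box was in 15 of 18 chaperone genes with a window (83.3%).
Pdia6, chr12:17266339-17266588, plus strand: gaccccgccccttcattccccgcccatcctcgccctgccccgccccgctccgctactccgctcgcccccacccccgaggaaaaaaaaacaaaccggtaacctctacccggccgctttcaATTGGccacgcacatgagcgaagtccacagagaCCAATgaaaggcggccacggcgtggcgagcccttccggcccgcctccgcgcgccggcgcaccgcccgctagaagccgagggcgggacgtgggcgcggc

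Lipid and sugar metabolism gave calls in single genes more than in whole pathways. Cpt1a, the gate of mitochondrial fatty acid oxidation, went from 530.3 to 1197.3 units and was the 1 gene called among 31 measured genes of fatty acid oxidation. Elovl6 and Elovl3, both fatty acid elongases, went opposite ways. Elovl6 had 80.7 units at ZT2 and 266.9 at ZT14, and a second Elovl6 probe set was called the same way at 66.7 and 141.3. Elovl3 had 102.0 and 7.6 (Absent), at least 13.5-fold lower at ZT14, with 112.0 and 2.7 (Absent) in the sham pair. Thrsp, a lipogenic protein also called Spot 14, went from 760.2 to 1662.1, and its sham signals of 1030.0 and 2998.1 were both higher. G0s2, an inhibitor of the lipase Pnpla2, went from 236.1 to 508.7.

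Among 10 peroxisomal and microsomal genes of fatty acid oxidation none was called, and 7 had a positive and 3 a negative difference, with a median of 0.13 against -0.31 in the sham pair. Cyp4a14, a fatty acid omega-hydroxylase under PPAR alpha, had 217.2 and 389.3 units after adrenalectomy and 649.1 and 309.8 in the sham pair, so that the order of the times was opposite. Hsd3b7, an enzyme of bile acid synthesis, went from 1207.5 to 537.1 and was the 1 gene called among 18 of bile acid synthesis and transport. Upp2, a uridine phosphorylase, went from 303.0 to 1711.9, and Nampt, which makes a precursor of NAD, from 46.2 to 106.0. Both were called higher at ZT14. So were Mknk2, a kinase of the translation factor eIF4E, at 44.9 and 111.8, Nrep at 85.6 and 235.9, and the ubiquitin ligase Rnf145 at 56.7 and 155.0.

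Amino acid genes gave calls in both directions. Ass1 and Slc7a2 were the 2 genes called higher among 7 of the urea cycle and arginine transport. Ass1, the argininosuccinate synthase, went from 14.7 to 75.4 units by this probe set, with 40.6 (Marginal) and 31.6 in the sham pair. Slc7a2, a cationic amino acid transporter of liver, went from 105.0 to 286.9. Gldc, the glycine decarboxylase of the glycine cleavage system, was called lower, from 300.7 to 104.3. Csad, which makes the taurine precursor hypotaurine, went from 579.1 to 195.1, whereas its sham signals of 628.7 and 611.2 were level, so the ADX ZT14 array alone was low. Ethe1, a mitochondrial enzyme of sulfide breakdown, went from 609.9 to 250.8.

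Haem and drug metabolism gave calls in a few single genes. Alas1, the rate-limiting enzyme of haem synthesis, went from 554.8 to 1861.1 units and was the 1 gene called among 14 measured haem genes. The summed red-cell marker signal was 1476.6 at ZT2 and 1968.7 at ZT14 in the ADX pair, against 1759.8 and 1063.4 in the sham pair, and its part in the haem values was not tested. Gstt2, a glutathione transferase, went from 205.9 to 511.7 and was the 1 gene called among 30 measured genes of conjugation. Of 28 measured cytochrome P450 genes, 2 were called higher and 1 lower, against 2.69% and 2.23% of all genes. Cyp2b9, a cytochrome P450 with high expression in female liver, went from 29.8 to 238.4 units, while both sham arrays were Absent at 9.0 and 6.3. Its relative Cyp2b13 was Absent at 0.7 units on the ADX ZT2 array and Present at 16.5 on the ADX ZT14 array, and Absent on both sham arrays. These family members are similar in sequence, so their probe sets may share signal. Kap, a kidney androgen-regulated gene, shared this pattern, with 5.1 (Absent) and 39.8 units in the ADX pair and Absent calls at 4.1 and 4.0 in the sham pair. Both Cyp2b genes and Kap thus had their highest signal on the ADX ZT14 array.

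Of 5 measured genes for water channels and the vasopressin receptor, 3 were called lower at ZT14 and 0 higher. Aqp8, a water channel of hepatocytes, went from 206.2 to 41.5 units, a 4.97-fold difference, and from 262.1 to 47.7 in the sham pair. Avpr1a, the vasopressin receptor of liver, went from 50.4 to 5.3 (Absent), at least 9.44-fold lower, against 37.2 and 14.7 in the sham pair. A second Avpr1a probe set gave a smaller log2 difference of -0.97 and was not called. Aqp7, a glycerol channel, was at 10.6 and 2.2 (Absent), near the detection limit.

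Of 9 measured tubulins, 2 were called lower and 0 higher, with a median log2 difference of -0.48 (sham -0.28). Tubb2a went from 666.1 to 142.3 units and Tubb3 from 357.2 to 92.0, by family probe sets that can bind related tubulin transcripts, so neither value can be given to 1 tubulin gene alone. S100a10, a partner of annexin A2, went from 511.7 to 148.3. Atf5, a bZIP factor of stress responses, went from 292.9 to 96.9, and its sham signals were 282.3 and 94.8. Chka, choline kinase alpha, went from 144.0 to 56.9, and Ppp1r3c, which targets protein phosphatase 1 to glycogen, from 108.7 to 36.8. Tfpi2, an inhibitor of serine proteases, went from 501.7 to 195.1, and Psen2, a presenilin of the gamma-secretase complex, from 630.4 to 249.0. Car14, a membrane carbonic anhydrase, went from 166.3 to 72.8, and Ceacam1, an adhesion molecule, from 188.7 to 81.2.

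Secreted defence proteins leaned to lower signal at ZT14. Of 25 measured acute-phase genes, 3 were called lower and 0 higher, with a median of -0.22 over the 24 Present on both arrays (sham -0.19). Lbp, the lipopolysaccharide-binding protein, went from 260.2 to 122.4 units, and Cd14, the receptor it serves, from 37.7 to 17.4 (Absent). Apcs, serum amyloid P, went from 590.5 to 293.3, just past 2-fold, and was not called after quantile normalization. Fgg, the fibrinogen gamma chain, was at 3435.5 and 1868.7 and was not called. In complement and coagulation 31 of the 42 genes Present on both arrays had a negative difference, against 2010 of 4075 over all genes. The median was -0.13 (sham -0.09), and of 43 measured genes 1 was called higher and 0 lower. Bright probe sets as a class also had negative medians, -0.036 at 300 to 1000 units and -0.068 at 1000 units or more. The part of brightness in these medians was not tested.

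Genes of interferon response and antigen presentation gave 4 calls higher and 0 lower among 38 measured genes, against 2.69% and 2.23% of all genes. Their median was 0.08 over the 32 Present on both arrays, against -0.23 for the same genes in the sham pair. H2-Ab1, a class II major histocompatibility chain, went from 28.9 to 58.6 units, against 43.6 and 29.2 (Absent) in the sham pair. It was not called after quantile normalization or on the deposited scale. Its partners were not called but had the same order, with H2-Aa at 73.4 and 118.1, H2-Eb1 at 51.0 and 84.4, and the invariant chain Cd74 at 147.3 and 234.8. Cxcl9, a chemokine induced by interferon gamma, went from 32.6 to 69.4, and Usp18, which removes the ubiquitin-like ISG15, from 10.7 (Marginal) to 28.1. Eif2ak2, the double-stranded RNA kinase, was Absent at 3.5 units and Present at 11.7. Usp18 and Eif2ak2 had mean ADX signals of 19.41 and 7.64 units. In that class, under 20 units, 14.51% of probe sets were called, so the share over all genes is a low background for them. Both lost the call when Present was required on both ADX arrays. Leukocyte markers had 8 of 19 genes Present at ZT2 and 6 at ZT14, with summed signals of 774.2 and 672.5, and Cd3e, Cd3g, Cd8a and Itgam were Absent. In whole liver, fewer cells of a type and less RNA per cell cannot be told apart.

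Retinoid metabolism had 2 calls lower among 12 measured genes. Cyp26a1, which degrades retinoic acid, went from 107.2 to 53.3 units, and both values exceeded the sham values of 39.1 and 25.3. Rdh11, a retinol dehydrogenase, went from 177.7 to 83.4 by a family probe set. Dhrs3, which reduces retinal, was at 223.0 and 114.5 and fell just short of 2-fold. Abcg1, a cholesterol exporter, went from 31.4 to 65.8 and was 1 of 3 ABC transporters called higher among 14 measured, the others, Abcb1a and Abcd2, being Absent at ZT2.

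The housekeeping machinery carried almost no calls. Among 64 measured genes of the respiratory chain and ATP synthase, 42 of the proteasome, 26 of the ribosome and 20 of antioxidant defence, none was called in either direction. Their medians were -0.01, -0.07, -0.08 and 0.13. Heat shock genes had 1 call among 29 measured, Hspa1b, an inducible Hsp70, at 77.1 and 276.4 units. The heat shock median of 0.18 was close to its sham value of 0.15, with 21 of 28 differences positive.

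**Figure D4:**
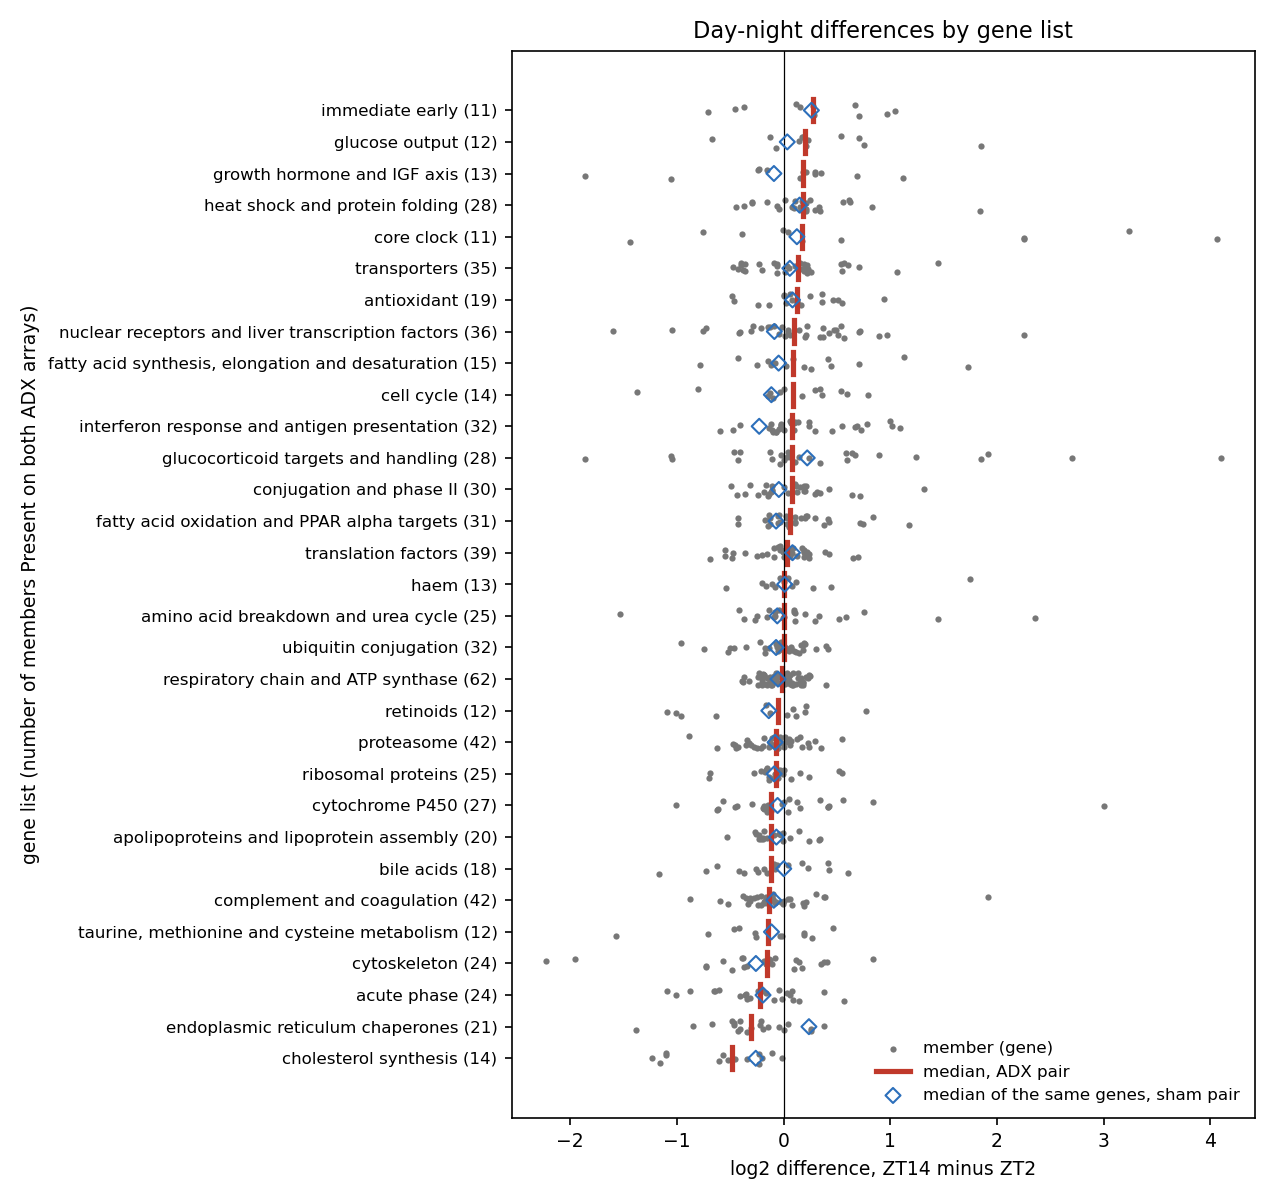
Log2 differences, ZT14 minus ZT2, of the genes Present on both ADX arrays, as grey points by list with their number in brackets, red bars for the ADX median and open blue diamonds for the sham median of the same genes. Lists with at least 10 such genes are shown, ordered by ADX median, from immediate early genes at 0.27 to cholesterol synthesis at -0.49, and the chaperones of the endoplasmic reticulum show a red bar and a blue diamond on opposite sides of 0.

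Most of the bright day-night differences of the ADX pair had the same sign in the sham pair, which shares no array with it. Of the 40 probe sets called higher with a signal of 100 units or more, 39 had a positive sham difference, the exception being Cyp2b9, which was Absent on both sham arrays. Of the 39 called lower, 37 had a negative sham difference, the exceptions being Idi1 and a Dnajc3 probe set. Among calls of any signal the same sign was found for 111 of 177 called higher and 117 of 150 called lower. Fewer were also called the same way in the sham pair: 23 of the 40 and 19 of the 39 bright calls. At any signal, 41 of the 177 and 38 of the 150 were also called there. The sham pair itself had 211 probe sets called higher and 156 called lower at any signal. Among probe sets with a brighter ADX signal of 100 units or more, it had 45 and 38. The share of equal signs over all probe sets was not counted, so whether the ADX calls exceed that share is not known. Among the calls of 100 units or more that were Present on all 4 arrays, the widest gaps between the pairs were those of Igfbp1 (a log2 difference of -1.86 against -4.50), Csad (-1.57 against -0.04) and Mt1 (4.10 against 2.68). Cyp2b9 and both Usp2 probe sets also lay apart between the pairs, but each was Absent on at least 1 array of the sham pair, so the size of those gaps is not known. Slc25a47, a mitochondrial carrier of liver, had 1.49 against 0.37, from signals of 266.0 and 747.5 in the ADX pair.

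**Figure D5:**
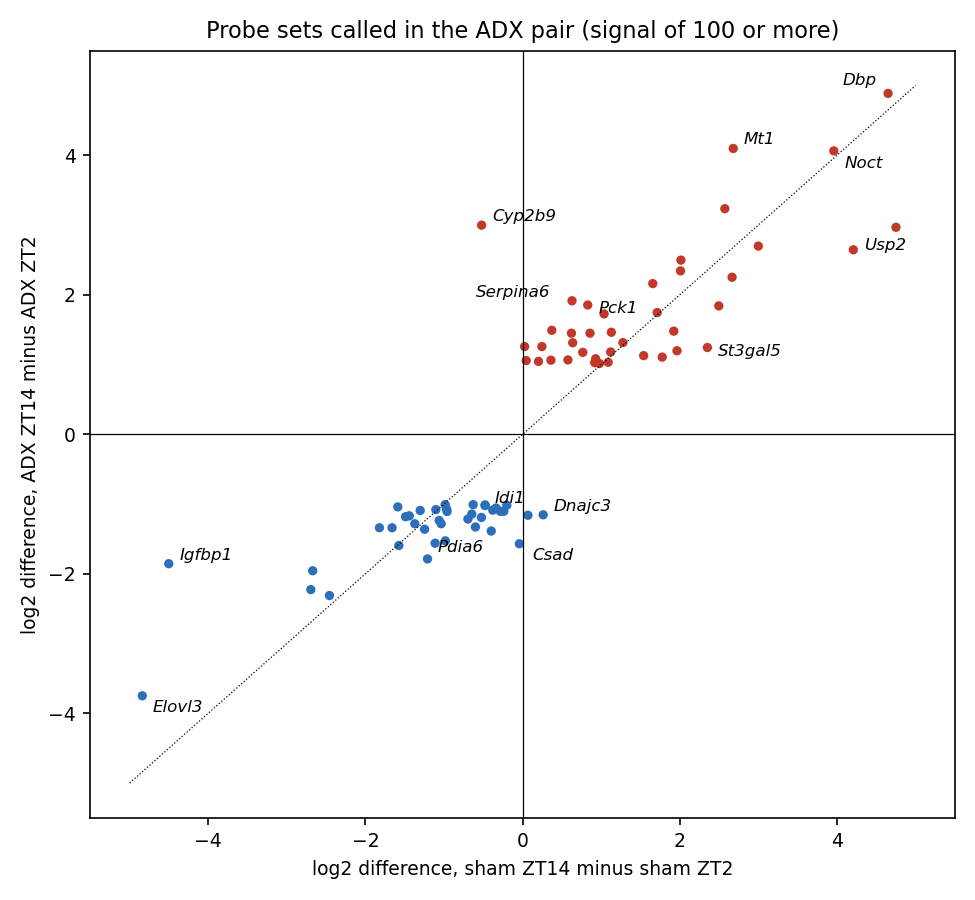
Log2 differences, ZT14 minus ZT2, in the sham pair (horizontal) and the ADX pair (vertical) for the 79 probe sets called in the ADX pair with a brighter signal of 100 units or more, red for higher and blue for lower, with the dotted line marking equality. Apart from Cyp2b9, Idi1 and Dnajc3 the points lie in the quadrants of equal sign, and the empty band between 1 and -1 on the vertical axis comes from the call itself.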

How the data were processed

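Total RNA of mouse liver was measured on 4 arrays, 1 per group, and the groups came from the sample titles. Per the file headers, the deposited values are single-array Affymetrix signals, 1 linear intensity per probe set beside its detection call. The deposited detection p-value entered only through that call. No source used here names the software version or a scaling target. The deposited intensities were multiplied to a common 2% trimmed mean (factors 1.043 for ADX ZT2 and 1.067 for ADX ZT14), values under 3.91 units, the median Absent signal, were set to 3.91, and log2 values were compared. The 66 controls were dropped once the arrays were scaled. RNA quality was read from the 3'-over-5' ratio, for actin 1.89 at ZT2 and 1.73 at ZT14, and for Gapdh 0.91 at ZT2 and 1.03 at ZT14. The actin controls had ADX log2 differences of -0.67, -0.55 and -0.66, against -0.01, -0.03 and -0.11 in the sham pair. Those of Gapdh were -0.06, -0.23 and -0.30, against -0.16, -0.19 and -0.27. None reached 2-fold, and the cause was not tested. The number of arrays limits the precision.

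Genes were named from the platform annotation, with 1 symbol for 10855 probe sets and several for 396, while 1237 (with controls) had no entry there. A gene was represented by its brightest probe set. Genes named in the text were the 20 highest and 20 lowest called with a signal of 100 units or more, the 6 highest and 6 lowest at any signal, members of the gene lists, the 10 bright calls farthest from sham, and genes called oppositely in sham. The members and lists were chosen with earlier results of these data known. Alternatives changed the scaling, the floor, the detection filter and the fold. Promoter windows came from RefSeq. The calling steps were tested on simulated data, with differences planted only in probe sets Present on both ADX arrays. Calls not Present on the dimmer array were therefore not covered by that check. The work was done in Python 3.11.15 with NumPy 2.4.6, pandas 2.3.3 and Matplotlib 3.10.9.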

Additional observations from a re-analysis of the deposited data

Results flagged for a closer look

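4 genes were called in opposite directions in the ADX and sham pairs, all at low signal and with 1 array per group, and the difference between the pairs was not tested. Their dimmer array was Absent in the ADX pair for all 4 and in the sham pair for all but Zfp292, so each log2 difference below is a lower bound on its size, apart from the sham value of Zfp292. Bmp6, a ligand of the iron-sensing pathway, had a log2 difference of -1.075 in the ADX pair and 1.86 in the sham pair. Eif2ak2, the double-stranded RNA kinase, had 1.587 against -1.30. Sspo had 1.026 against -1.30, and it was not called on the deposited scale or after quantile normalization. Zfp292 had -1.342 against 1.22, and its other probe set gave 0.265 in the ADX pair.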

How the results depend on the processing

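The counts of 177 probe sets called higher and 150 lower stayed within 1.5 times on the deposited scale (159 and 165), after quantile normalization (137 and 189), with the median log2 ratio set to 0 (173 and 151), with a floor of 1 unit (193 and 170), with a doubled floor (125 and 105) and with Marginal calls admitted (203 and 168). They were 71 and 70 with the floor at the 90th percentile of Absent signals (17.51 units), 80 and 64 when Present was required on both arrays, 705 and 475 without a detection filter, 533 and 500 at 1.5-fold, and 44 and 25 at 3-fold. Of 87 called probe sets followed singly, 29 lost the call when Present was required on both arrays, 19 with the highest floor, 6 with the doubled floor, 4 after quantile normalization and 2 on the deposited scale, and none changed sign under these settings. Of 79 other measured probe sets of called genes, 57 had the same sign and 10 were called the same way. Among the genes named here, another probe set had the opposite sign for Noct (-0.244), Dnajc3 (0.064) and Zfp292 (0.265), and the cause was not tested. No paired analysis was possible because each group has 1 array, and for the same reason no array could be left out. A call not Present on the dimmer array has only a bound on its size.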

Other observations

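Genes of growth control and early response also gave calls. Ccng2, a cyclin linked to cell cycle arrest, had a signal of 59.2 units on the ADX ZT2 array and 22.8 at ZT14, against 115.8 and 23.4 in the sham pair. Mcm7, a subunit of the replicative helicase, went from 51.1 to 19.7 (Absent), and Cdkn1c, an inhibitor of cyclin-dependent kinases, from 2.5 (Absent) to 15.9. The cell cycle list had 3 genes called higher and 2 lower among 20 measured. Egr1, an immediate early zinc finger factor, was at 34.2 and 14.3 (Absent), and Klf10, another early zinc finger factor, went from 23.9 to 49.2. Bcl6, a repressor that responds to growth hormone, went from 200.3 to 96.2, and Klf9, a glucocorticoid-responsive factor, from 84.3 to 41.0 by a probe set shared among transcripts. Another Klf9 probe set gave a log2 difference of -0.28 and was not called. Igfbp3, the main carrier of insulin-like growth factors in plasma, went from 18.8 to 40.7, whereas Igf1 itself, at 1480.1 and 1252.2, and the growth hormone receptor Ghr, at 804.9 and 684.9, were not called.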
